A study of Mus musculus with 44 samples.

Results

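Chemokines that gastric epithelium and infiltrating leukocytes are known to make were followed through the gastric corpus mucosa of mice that lack or keep the H+/K+ATPase beta subunit. The 10 genes were chosen by name, with earlier results of these data known, out of 31484 genes with paired transcripts. They are Cxcl17, Cxcl16, Cxcl1, Cxcl5, Cxcl13, Ccl20, Ccl28, Ccl25, Ccl5 and Ccl8. All 10 passed the filter on low counts, as did 14901 genes in all, although Cxcl5 lay close to its limit. Messenger RNA was sequenced from 44 libraries of 13 month old female BalbC mice, of which 11 were wild-type (WT) mice given the vehicle polyethylene glycol (WT/PEG) and 9 were WT mice given netazepide (WT/NTZ), an antagonist of the gastrin receptor. The other libraries came from mice homozygous for a knockout allele of Atp4b, the gene of that beta subunit (KO). Of these, 13 were KO/PEG and 11 KO/NTZ. The beta subunit is absent from every cell of the KO mice and not from parietal cells alone, and both treatments were injected under the skin.

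Chemokines are small secreted proteins that guide leukocytes along concentration gradients through G protein-coupled receptors. They are classed by the spacing of the first cysteines, which are separated by a residue in the CXC class and adjacent in the CC class. Epithelial cells make some of them at all times, whereas others are induced within hours by interleukin-1, tumour necrosis factor or interleukin-17 through NF-kappaB. In the stomach, parietal cells secrete acid through the H+/K+ATPase, and gastrin acts through its receptor on enterochromaffin-like cells and parietal cells.

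The total estimated count per library was between 6065084 and 21945124, so that the 3 counts taken as the floor of detection were worth 0.137 to 0.495 CPM (counts scaled to a common library total), which covers counting error only. Levels below are CPM after TMM normalization, and differences are log2 fold changes ± SE from edgeR's quasi-likelihood test, with p-values adjusted by the Benjamini-Hochberg procedure over all genes tested. Atp4b was at 2139 to 5738 CPM in the WT libraries and at 2.28 to 40.6 CPM in the KO libraries, so each library matched its labelled genotype. The mitochondrial share of the counts was between 1.85% and 14.4%. Libraries are named by genotype and animal number, as in the labels. In 4 of them, markers of lymphoid follicles were highest. The summed CPM of 3 follicular dendritic cell markers was 8.33 in WT_118 (WT/NTZ), 18.8 and 25.1 in KO_46 and KO_109 (both KO/PEG), and 20.8 in KO_36 (KO/NTZ). It was at most 6.57 in every other library. That value was of KO_51 (KO/NTZ), which lay close to WT_118 but was not among the 4. B cell markers summed to 40.2 CPM in KO_51 and to 41.1 CPM in WT_118. Animals numbered 100 or above made up 11 of the WT/PEG, 4 of the WT/NTZ, 7 of the KO/PEG and 1 of the KO/NTZ libraries, and the sources do not say what the numbering stands for. Since bulk mucosa was measured, fewer cells of a type and less RNA per cell cannot be told apart.

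Cxcl1 and Cxcl5 are ligands of Cxcr2 that attract neutrophils, and Ccl20 and Ccl28 are epithelial ligands of the CC class, of which Ccl20 binds Ccr6 and Ccl28 binds Ccr10 and Ccr3. These are the 4 members on which the NTZ results turn. Their coding stretches around the first cysteines are shown because they set the class of each ligand. Capitals mark the codons of the cysteine motif, which in Cxcl1 and Cxcl5 includes the preceding glutamate-leucine-arginine (ELR) codons that define the neutrophil-attracting CXC ligands. The sequences are from GENCODE vM21 transcripts, 5′ to 3′, and cover codons 28 to 39 of 96 for Cxcl1, 48 to 59 of 132 for Cxcl5, 28 to 39 of 97 for Ccl20 and 25 to 36 of 130 for Ccl28.
Cxcl1: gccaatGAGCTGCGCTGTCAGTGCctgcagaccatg
Cxcl5: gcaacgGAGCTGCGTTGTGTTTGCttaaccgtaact
Ccl20: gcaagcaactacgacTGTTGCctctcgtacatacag
Ccl28: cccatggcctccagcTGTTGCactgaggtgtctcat
The stretches of Cxcl1 and Cxcl5 hold the ELR codons before the first cysteine codon, which is codon 33 in Cxcl1 and 53 in Cxcl5. Those of Ccl20 and Ccl28 hold 2 adjacent cysteine codons and no ELR codons.

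Under vehicle, 9 of the 10 chemokines were higher in KO than in WT mucosa. The exception was Cxcl13. Of these calls, 8 held by DESeq2, and 7 held when the WT/PEG pair with the same animal number was summed, where Ccl25 (adjusted p = 0.0715) and Ccl5 (adjusted p = 0.065) were lost. The comparison addresses the effect of losing the beta subunit, and it moved much of the transcriptome: 74.7% of all genes tested were called in either direction and 37.5% were called higher, against which the 9 members are to be read. The median log2 fold change of the 10 members was 1.53, and that of all genes tested was -0.00288. How many of all genes tested separate fully between groups was not counted, so ranges that do not overlap are given as description. The neutrophil-attracting pair and Ccl20 had the largest differences among the members, together with Ccl8.

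Cxcl17 and Cxcl16 are the members with the highest level per transcript length in every group. Cxcl17 (GRCm38 chr7:25400053-25412886, minus strand) is a mucosal chemokine that attracts monocytes and dendritic cells. It was at 47.9 to 76.3 CPM in WT/PEG, with a median of 66.0, and at 79.1 to 210.5 CPM in KO/PEG, with a median of 145.5. Every KO/PEG value exceeded the WT/PEG maximum, and the difference was 1.20 ± 0.134 on the log2 scale (adjusted p = 3.53e-10). Cxcl16 (chr11:70453983-70459984, minus strand), a membrane-bound ligand of Cxcr6 that also takes up oxidized lipoprotein, ranged from 14.2 to 32.8 CPM in WT/PEG (median 22.9) and from 32.9 to 85.9 CPM in KO/PEG (median 51.6). Again no KO/PEG library fell within the WT/PEG range, and the log2 fold change was 1.14 ± 0.159 (adjusted p = 4.78e-08).

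**Figure D1:**
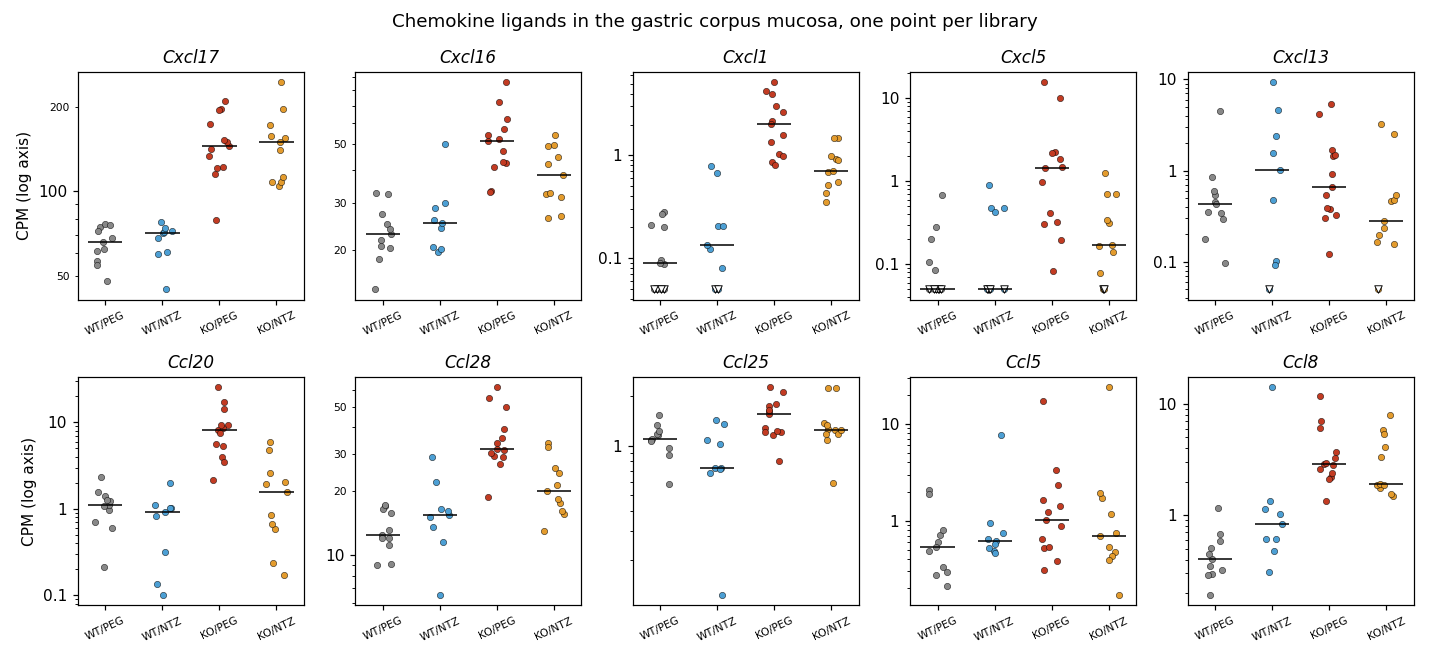
CPM of each chemokine (log axis) in each of the 44 libraries, by group. Each point is a library, bars are medians, and open triangles at 0.05 stand for libraries at 0. Cxcl17, Cxcl16, Cxcl1, Ccl28 and Ccl8 in KO/PEG lie wholly above WT/PEG, a separation that was not counted over all genes. Ccl20 in KO/NTZ lies mostly below KO/PEG. Single libraries reach 23.8 CPM of Ccl5 in KO/NTZ, 17.1 in KO/PEG and 7.66 in WT/NTZ.

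The ELR ligands were near the floor of detection in WT mucosa. Cxcl1 (chr5:90891241-90893115, plus strand) was at 0 in 4 of the 11 WT/PEG libraries, with a median of 0.0892 CPM and a highest value of 0.280 CPM. In KO/PEG it was detected in all 13 libraries, from 0.809 to 5.16 CPM with a median of 2.05 CPM. None of the KO/PEG libraries overlapped WT/PEG, and the log2 fold change of 4.27 ± 0.496 corresponded to 19.2-fold (adjusted p = 8.98e-10). Cxcl5 (chr5:90759360-90761624, plus strand) was at 0 in 6 WT/PEG libraries and reached 0.679 CPM in the highest. Its KO/PEG levels spread most among the members in that group, from 0.0826 to 15.5 CPM around a median of 1.46 CPM. The 2 highest KO/PEG libraries, 31 and 46, had 15.5 and 9.92 CPM, and the next had 2.28 CPM. The groups overlapped, with 8 of 13 KO/PEG values past the WT/PEG maximum, and the log2 fold change was 4.58 ± 0.833 (adjusted p = 6e-06). Since at most 5 counts of either gene were seen in any WT/PEG library, these folds rest on a denominator of few reads.

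The CC ligands made by epithelium, which attract lymphocytes to mucosal surfaces, rose by different amounts in counts summed over transcripts. Ccl20 (chr1:83116766-83119167, plus strand), the ligand of Ccr6 on B cells, Th17 cells and immature dendritic cells, was at 0.213 to 2.32 CPM in WT/PEG (median 1.11) and at 2.18 to 25.3 CPM in KO/PEG (median 8.07). The WT/PEG maximum was exceeded in 12 of 13 KO/PEG libraries, and the log2 fold change was 3.02 ± 0.443 (adjusted p = 1.31e-07). Ccl28 (chr13:119623819-119654359, plus strand), which draws IgA plasma cells to mucosae, rose from 8.96 to 17.3 CPM in WT/PEG (median 12.5) to 18.8 to 61.5 CPM in KO/PEG (median 31.7). The ranges did not overlap, and the log2 fold change was 1.46 ± 0.186 (adjusted p = 7.62e-09). Ccl25 (chr8:4325210-4360020, plus strand), known as the thymic and small intestinal ligand of Ccr9, was low throughout, with 0.583 to 1.54 CPM in WT/PEG (median 1.10) and 0.804 to 2.27 CPM in KO/PEG (median 1.55). Its log2 fold change of 0.44 ± 0.205 lay at the threshold (adjusted p = 0.0495). It lost the call when 16 of the 24 libraries of these groups were left out one at a time, with adjusted p-values between 0.0266 and 0.097. Ccl25-201, its coding transcript with the most counts, had means of 0.318 CPM in WT/PEG and 0.297 CPM in KO/PEG. The noncoding processed transcript Ccl25-207 had 0.0938 and 0.426 CPM. Ccl25-208, annotated as subject to nonsense-mediated decay, had 0.450 and 0.626 CPM. The rise of the summed counts was thus not seen in Ccl25-201.

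The ligands usually made by leukocytes and stroma behaved unequally. Ccl8 (chr11:82115185-82116799, plus strand), a macrophage product that acts on Ccr8 in the mouse, was at 0.194 to 1.16 CPM in WT/PEG (median 0.408) and at 1.35 to 11.9 CPM in KO/PEG (median 2.86). The groups did not overlap, and the log2 fold change was 2.99 ± 0.516 (adjusted p = 2.5e-06). Ccl5 (chr11:83525778-83530518, minus strand), a product of T cells and NK cells, ranged from 0.213 to 2.10 CPM in WT/PEG (median 0.535) and from 0.306 to 17.1 CPM in KO/PEG (median 1.01). The WT/PEG maximum was exceeded in 3 of 13 KO/PEG libraries, and the log2 fold change was 1.61 ± 0.733 (adjusted p = 0.0455). Without KO_109, the library at 17.1 CPM, the value was 0.64 ± 0.658 (adjusted p = 0.386), and DESeq2 gave 0.63 with an adjusted p of 0.132. Without the 4 libraries with follicle markers, Ccl5 was at 0.39 ± 0.370 (adjusted p = 0.334). Cxcl13 (chr5:95956951-95961068, plus strand), the B cell attractant of follicles that binds Cxcr5, was at 0.0972 to 4.54 CPM in WT/PEG (median 0.427) and at 0.122 to 5.40 CPM in KO/PEG (median 0.657). These ranges overlapped almost wholly, and the log2 difference of 0.80 ± 0.689 did not pass the test (adjusted p = 0.292). Without WT_121, the library at 4.54 CPM, it was 1.66 ± 0.703 (adjusted p = 0.0315).

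Markers of other cells moved with genotype as well. All 5 B cell markers were higher in KO/PEG than in WT/PEG, with a summed level of 0.679 to 11.2 CPM in WT/PEG and 4.23 to 80.1 CPM in KO/PEG. Of the 6 T cell markers tested, 4 were higher and 2 gave no call, with sums of 4.37 to 15.5 CPM and 4.46 to 36.1 CPM over the 7 listed. Macrophage markers were higher for 5, lower for 1 and not called for 3 of 9, and the medians of their sums were 79.5 CPM and 156.9 CPM. The 4 mucous neck and SPEM (spasmolytic polypeptide-expressing metaplasia) markers were all higher, with sums of 820.3 to 1438 CPM in WT/PEG and 3543 to 40650 CPM in KO/PEG. Of 4 chief cell markers, 3 were lower and 1 was higher. The part of these cells in the chemokine differences was not tested.

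In KO mice, NTZ was accompanied by lower Ccl20, Cxcl5, Cxcl1 and Ccl28, and none of the 10 chemokines was higher. This comparison asks what blocking the gastrin receptor changed in the KO mucosa, and it uses the same KO/PEG libraries as the comparison above. Of all genes tested, 5.56% were called and 2.6% were called lower. The median log2 fold change was -0.57 over the 10 members and -0.011 over all genes tested. At an unadjusted p under 0.05, edgeR found 5 members lower and 0 higher, and DESeq2 called 4 lower and 0 higher. Summed markers of other cells also differed in median between KO/PEG and KO/NTZ: T cells had 11.3 and 5.48 CPM, plasma cells 568.4 and 445.9 CPM, and macrophages 156.9 and 132.9 CPM. The sums were larger in KO/NTZ for smooth muscle, with medians of 856 and 1667 CPM, and for squamous forestomach, with 21.8 and 90.8 CPM. They were larger as well for B cells (9.15 and 12.5 CPM), follicular dendritic cells (1.73 and 2.58), mast cells (136.6 and 188.1) and eosinophils (2.63 and 3.26). Neutrophil sums had medians of 2.725 and 2.694 CPM. No marker of T cells, B cells, plasma cells or macrophages was called in either direction. The part of these cells in the chemokine differences was not tested.

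Ccl20 changed most clearly. In KO/NTZ it was at 0.173 to 5.98 CPM with a median of 1.55 CPM, against the KO/PEG median of 8.07 CPM. No KO/NTZ value reached the KO/PEG median, 8 of 11 lay under the KO/PEG minimum, and the log2 fold change was -2.20 ± 0.418 (adjusted p = 7.66e-04), or 4.59-fold lower. The fold change was kept between -2.52 and -1.97 when each library was left out in turn. Cxcl5 was at 0 in 2 KO/NTZ libraries and at most at 1.24 CPM, with a median of 0.173 CPM. Its log2 fold change was -2.89 ± 0.702 (adjusted p = 8.97e-03), with no KO/NTZ value reaching the KO/PEG median but only 3 under the KO/PEG minimum, and the median count in KO/NTZ was 3, at the floor. Cxcl5 passed the filter in 15 of 24 fits that each left out a library. It was called in those, with adjusted p-values of 0.00502 to 0.018. The fits without KO_31 or KO_46, its highest KO/PEG libraries, were not among them. Whether the call holds without either library can therefore not be told from these fits. Cxcl1 ranged from 0.353 to 1.48 CPM in KO/NTZ (median 0.702). There too no value reached the KO/PEG median, 6 of 11 lay under the KO/PEG minimum, and the log2 fold change was -1.48 ± 0.389 (adjusted p = 0.016).

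Ccl28 had the smallest of the 4 differences and the least scatter. It was at 13.1 to 33.8 CPM in KO/NTZ with a median of 20.2 CPM, and 5 of 11 libraries were below every KO/PEG library. The log2 fold change was -0.74 ± 0.181 (adjusted p = 9.72e-03). Among the 6 KO/PEG and 10 KO/NTZ libraries numbered below 100, the log2 fold change of Ccl20 was -2.98 (adjusted p = 0.0143). It was -1.06 for Ccl28 (adjusted p = 0.0247) and -1.55 for Cxcl1 (adjusted p = 0.0432). Cxcl5 did not pass the filter on low counts in that smaller fit. Without the 4 libraries with follicle markers, Ccl20 was at -2.16 (adjusted p = 0.00228) and Ccl28 at -0.60 (adjusted p = 0.0361), Cxcl1 was at -1.12 and no longer called (adjusted p = 0.0534), and Cxcl5 again did not pass the filter.

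The other members gave no call under NTZ in KO mice. Cxcl17 kept a median of 150.2 CPM in KO/NTZ, within 104.4 to 245.7 CPM, and its log2 difference from KO/PEG was 0.01 ± 0.130 (adjusted p = 0.973). For Cxcl16 the KO/NTZ range was 26.4 to 54.1 CPM around a median of 38.2 CPM, and 10 of 11 values lay under the KO/PEG median. Its difference of -0.42 ± 0.156 did not pass (adjusted p = 0.0957). Ccl25 differed by -0.15 ± 0.203, Ccl8 by -0.22 ± 0.439 and Cxcl13 by -0.72 ± 0.673, none past the threshold. Ccl5 was at 0.173 to 1.94 CPM in 10 of the KO/NTZ libraries and at 23.8 CPM in KO_36. Its difference of 0.34 ± 0.668 on the log2 scale became -1.44 ± 0.603 without that library (adjusted p = 0.167) and 1.30 ± 0.615 without KO_109 (adjusted p = 0.132).

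**Figure D2:**
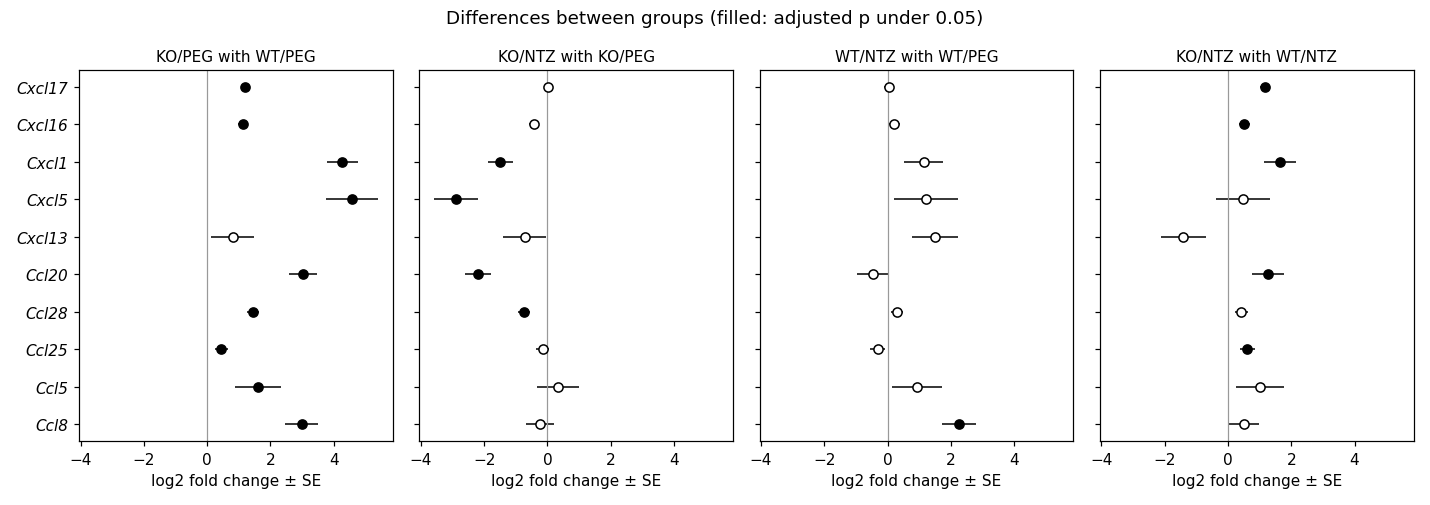
Log2 fold change ± SE of each chemokine (x axis) in the 4 comparisons between groups. Filled points had an adjusted p under 0.05. In KO/PEG with WT/PEG, 9 of 10 points are filled and to the right of 0, and in KO/NTZ with KO/PEG, 4 are filled, all to the left. The panels share groups, so they are not independent.

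Cxcl16 was split between transcripts. In WT/PEG, 51.8% of its counts were assigned to the protein-coding transcript (Cxcl16-201) and 46.2% to a transcript annotated as subject to nonsense-mediated decay (Cxcl16-202). In KO/PEG the shares were 39.1% and 59.1%, and in KO/NTZ 34.6% and 63.1%. In a fit on transcripts with the same test, Cxcl16-201 rose by 0.62 ± 0.194 in KO/PEG with WT/PEG (adjusted p = 0.00694) and Cxcl16-202 by 1.48 ± 0.216 (adjusted p = 2.71e-07). Under NTZ in KO mice, Cxcl16-201 fell by 0.71 ± 0.194 (adjusted p = 0.0364), and Cxcl16-202 differed by -0.31 ± 0.209 (adjusted p = 0.452). Whether both transcripts differ in their change was not tested, and kallisto divides reads that fit both. Nearly all counts of Cxcl17, at least 99.6% in each group, fell on Cxcl17-202. Ccl20 reads were divided mainly between the coding transcripts Ccl20-202 and Ccl20-203, which had log2 fold changes of -2.61 ± 0.826 (adjusted p = 0.078) and -1.82 ± 0.747 (adjusted p = 0.196) under NTZ in KO mice, so that the call for Ccl20 belongs to their sum.

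In WT mice, NTZ left 9 of the 10 chemokines without a call, and the call of Ccl8 was lost without either of 2 libraries. Here 1.03% of all genes tested were called. The median log2 fold change was 0.62 over the members and -0.0149 over all genes. Ccl8 was at 0.307 to 1.34 CPM in 8 of the WT/NTZ libraries and at 14.1 CPM in WT_118, against 0.194 to 1.16 CPM in WT/PEG. The log2 fold change of 2.26 ± 0.541 (adjusted p = 0.0243) became 0.68 ± 0.417 (adjusted p = 1) when WT_118 was left out, 0.69 ± 0.396 (adjusted p = 1) without all 4 libraries with follicle markers, and 2.18 (adjusted p = 0.052) without WT_150 of WT/PEG. The same library held the highest WT/NTZ values of Ccl5 (7.66 CPM), Cxcl13 (9.30 CPM), Cxcl16 (50.4 CPM) and Cxcl1 (0.791 CPM) and the lowest of Cxcl17 (44.7 CPM). Its summed T cell, B cell and macrophage markers, 31.7, 41.1 and 224 CPM, were the highest of the group, and the next libraries had 9.81, 7.20 and 111.7 CPM. Squamous forestomach and neutrophil markers had larger median sums in WT/NTZ as a group, 554.9 and 4.3 CPM against 0.892 and 1.20 CPM in WT/PEG, and their part in the chemokine values was not tested.

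Cxcl1 had a WT/NTZ median of 0.136 CPM and differed from WT/PEG by 1.14 ± 0.605 (adjusted p = 0.73). Cxcl5 was at 0 in all 5 WT/NTZ libraries numbered below 100 and at 0.426 to 0.909 CPM in the 4 numbered 100 or above. Its highest value was in WT_117, where the squamous forestomach markers summed to 2940 CPM and the neutrophil markers to 17.5 CPM, the highest sums of the series for squamous cells and of the WT libraries for neutrophils. The part of either cell type in the Cxcl5 values was not tested. Ccl20 and Ccl28 differed by -0.45 ± 0.509 and 0.30 ± 0.201 between the WT groups, neither past the threshold.

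Whether NTZ acted differently in KO and WT mice was tested directly. This difference of differences used all 4 groups, and 0.96% of all genes tested were called in it. Ccl28 was the only member that passed, with a difference of -1.04 ± 0.270 on the log2 scale (adjusted p = 0.0438). NTZ went with a Ccl28 median of 20.2 against 31.7 CPM in KO mice and of 15.5 against 12.5 CPM in WT mice. Leaving out each of the 44 libraries in turn gave between -1.15 and -0.89, and the call was lost in 21 of these fits (adjusted p up to 0.102, without WT_118). Without the 4 libraries with follicle markers it was -0.84 ± 0.264 and not called (adjusted p = 0.14), and with no filter on low counts the adjusted p was 0.0542. For the other members that fell in KO mice, the differences were -2.62 ± 0.725 for Cxcl1 (adjusted p = 0.0637), -4.10 ± 1.24 for Cxcl5 (adjusted p = 0.0941) and -1.75 ± 0.654 for Ccl20 (adjusted p = 0.221). Thus the larger fall of Ccl20 in KO than in WT mice was not shown at this threshold. DESeq2 called Ccl28, Cxcl1 (adjusted p = 0.0186), Cxcl5 (0.0382) and Ccl8 (0.0219) in this difference. At an unadjusted p under 0.05, 7 of 10 members differed.

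Under NTZ, 5 chemokines were still higher in KO than in WT mice. In this comparison, 72.4% of all genes tested were called. Cxcl17 differed by 1.17 ± 0.147 (adjusted p = 7.68e-09), and all 11 KO/NTZ libraries were above every WT/NTZ library. Cxcl1 was 1.65 ± 0.50 higher (adjusted p = 0.00346), or 2.23 ± 0.538 without WT_118. The log2 fold changes were 1.27 ± 0.496 for Ccl20 (adjusted p = 0.0208), 0.61 ± 0.233 for Ccl25 (adjusted p = 0.018) and 0.51 ± 0.173 for Cxcl16 (adjusted p = 0.00782). The coding transcript Ccl25-201 had means of 0.341 CPM in WT/NTZ and 0.228 CPM in KO/NTZ, so it was not higher in KO mice. Among animals numbered below 100, the calls of Ccl20 and Ccl25 were lost (0.997 ± 0.718 with adjusted p = 0.23 and 0.60 ± 0.372 with adjusted p = 0.164), Ccl28 (0.59 ± 0.233, adjusted p = 0.0355) and Ccl8 (2.06 ± 0.498, adjusted p = 0.00191) gained one, and Cxcl1 did not pass the filter. The Ccl20 call was lost as well without the KO/NTZ library KO_110 (0.95, adjusted p = 0.0755) or KO_27 (1.03, adjusted p = 0.0587). Ccl28 was at 0.42 ± 0.201 (adjusted p = 0.0585), or 0.57 ± 0.199 without the 4 libraries with follicle markers (adjusted p = 0.0108), and Cxcl5 at 0.48 ± 0.864 (adjusted p = 0.625).

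The values of Ccl8, Ccl5 and Cxcl13 in that comparison moved with single libraries. All 11 KO/NTZ libraries were above the WT/NTZ median of Ccl8, 0.832 CPM, with 1.5 to 7.89 CPM, yet the log2 fold change was 0.50 ± 0.489 (adjusted p = 0.357), and it became 2.07 ± 0.395 (adjusted p = 1.49e-05) without WT_118 and 2.11 ± 0.374 (adjusted p = 5.79e-06) without all 4. With a term for animals numbered 100 or above it was 1.33 ± 0.526 (adjusted p = 0.0224), with WT_118 kept. KO_51, which held the highest Ccl8 of KO/NTZ (7.89 CPM), was kept when the 4 were left out. Without KO_51 alone, the log2 fold change of Ccl8 was 0.27 (adjusted p = 0.63). Ccl5 was at 1.02 ± 0.758 (adjusted p = 0.225), 2.22 ± 0.806 without WT_118 (adjusted p = 0.0132) and -0.76 ± 0.647 without KO_36 (adjusted p = 0.292). Cxcl13 was at -1.41 ± 0.722 (adjusted p = 0.0766), or -0.60 ± 0.737 without WT_118. Without all 4 libraries, Ccl5 was at 0.49 ± 0.436 (adjusted p = 0.312) and Cxcl13 at -0.89 ± 0.691 (adjusted p = 0.245), so neither gained a call.

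**Figure D3:**
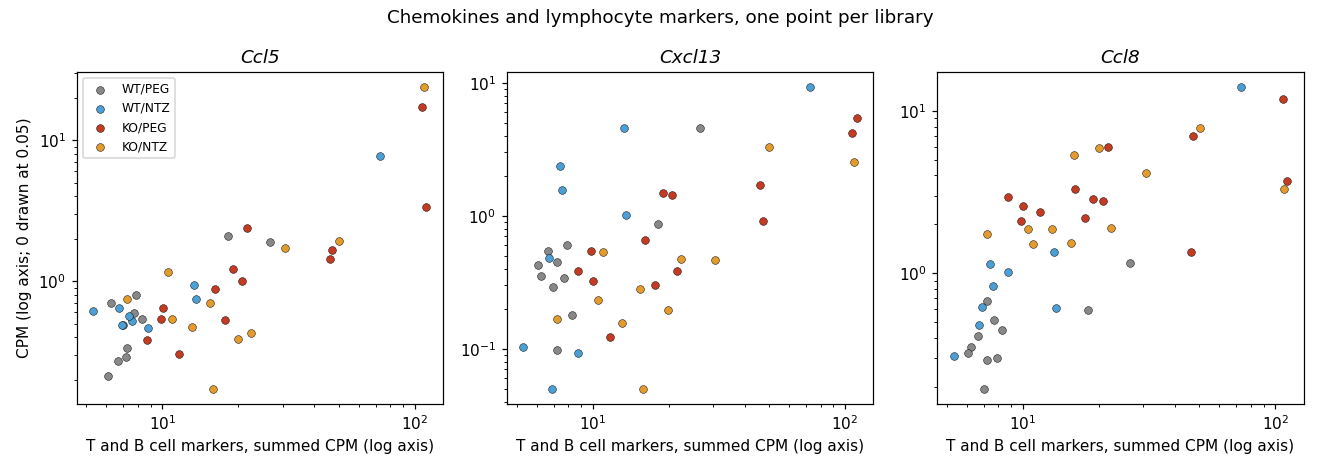
CPM of Ccl5, Cxcl13 and Ccl8 (y axis, log) against the summed CPM of 7 T cell and 5 B cell markers (x axis, log), 1 point for each of the 44 libraries, coloured by group. The libraries with the most Ccl5, 23.8, 17.1 and 7.66 CPM, are among the 4 furthest to the right, and the same library has the most Cxcl13 and Ccl8, 9.30 and 14.1 CPM.

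The members differed widely in level. Per transcript length, as TPM computed from the estimated counts, Cxcl17 had a KO/PEG median of 247.7 TPM and Cxcl16 one of 38.7 TPM, and their ranges did not overlap in any group. Ccl20 (12.1 TPM) and Ccl28 (10.2 TPM) came next in KO/PEG, followed by Ccl8 (7.36), Ccl25 (3.11), Cxcl1 (2.78), Ccl5 (2.54), Cxcl5 (1.21) and Cxcl13 (0.868 TPM). From Cxcl16 downwards, each of these neighbours overlapped in range with the next. In WT/PEG the order began likewise with Cxcl17 (96.1 TPM), Cxcl16 (14.8 TPM) and Ccl28 (3.64 TPM), and it ended with Cxcl1 (0.104 TPM) and Cxcl5, whose median was 0. Under NTZ in KO mice, Ccl20 was at 2.07 TPM, below Ccl8 (4.94 TPM) and Ccl25 (2.20 TPM), although its range overlapped that of Ccl25.

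**Figure D4:**
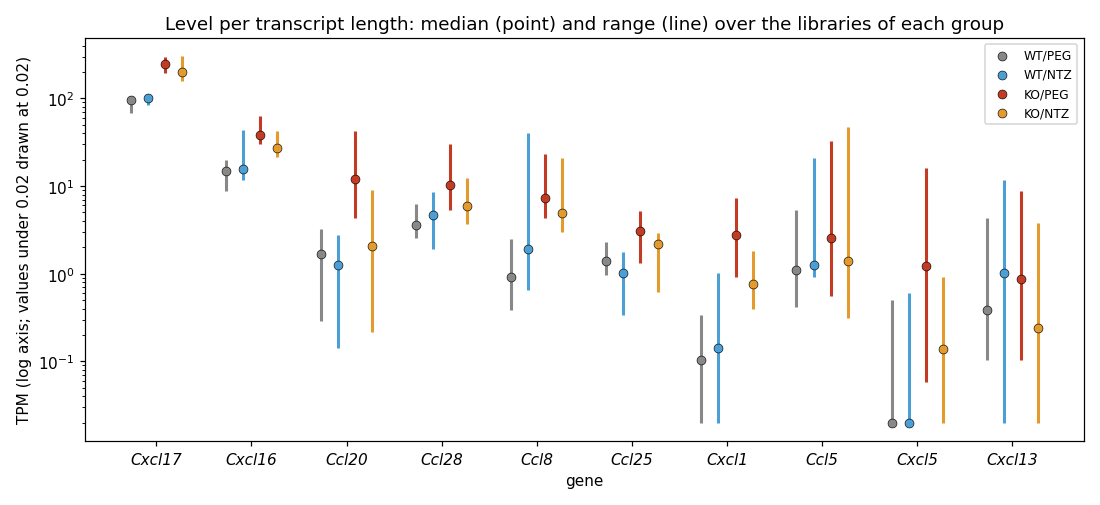
Level of each chemokine per transcript length in TPM (log axis), ordered by the KO/PEG median. Points are medians and lines the range over the libraries of each group, with values under 0.02 drawn at 0.02. Cxcl17 and Cxcl16 lie above the medians of the other members in all 4 groups.

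Spread among libraries also set the members apart. In KO/PEG, the SD of log2 CPM was 0.383 for Cxcl17, 0.401 for Cxcl16, 0.368 for Ccl25 and 0.459 for Ccl28, larger than in 43.7%, 46.9%, 40.8% and 55.6% of the genes tested. It was 1.81 for Cxcl5, 1.39 for Ccl5 and 1.30 for Cxcl13, larger than in 98.9%, 97.3% and 96.6% of them. In the 13 KO/PEG libraries, Cxcl1 correlated with Ccl5 (Pearson's r = 0.808, permutation p = 0.00014, adjusted over 45 pairs 0.0063, and Spearman's rho = 0.786, permutation p = 0.00248, adjusted 0.0769). Without the 2 libraries farthest from the median of Cxcl1, r was 0.808. Cxcl13 correlated with Ccl5 as well (r = 0.790, permutation p = 0.00087, adjusted 0.0196, and rho = 0.764, permutation p = 0.00342, adjusted 0.0769), with r at 0.601 without the 2 libraries farthest from the median of Cxcl13. No pair passed for rho after adjustment, where 11 did so unadjusted, and in the 11 KO/NTZ libraries no pair passed for either measure after adjustment, where 6 did so unadjusted for each. There, Cxcl13 and Ccl5 had r = 0.774 (permutation p = 0.00444, adjusted 0.188) and rho = 0.636 (permutation p = 0.0403, adjusted 0.303), and r = 0.565 without the 2 libraries farthest out. KO_46 and KO_109 held the highest Cxcl13 and Ccl5 values of their group, and KO_36 and KO_51 those of theirs.

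Genes whose level followed each chemokine most closely were named after each group's mean was taken off, over the 44 libraries and with no test, since the libraries also share depth and cell content. Ccl5 was closest to Trbc2 (r = 0.926), the constant region of the T cell receptor beta chain, followed by Ccr7 and Ltb (0.872 and 0.871). Cxcl13 was closest to Itgb2, Napsa and Cd79b (0.831, 0.811 and 0.799), and Ccl8 to H2-DMb1, Irf8 and H2-Ab1 (0.847, 0.817 and 0.815). Cxcl17 was closest to Lmf1, Tcn2 and Hexa (0.874, 0.864 and 0.852), and Cxcl16 to Shisa5, Wars and Rhoc (0.760, 0.738 and 0.738). Cxcl5 was closest to Ltf, S100a9 and Plat (0.701, 0.662 and 0.637), of which Ltf and S100a9 are neutrophil granule and cytosol proteins. The nearest genes were Fgd3, Rdh10 and Vnn1 for Cxcl1 (0.647, 0.629 and 0.616), Suox, Dgat2 and Trim25 for Ccl20 (0.692, 0.691 and 0.657), Atp10b, Tmcc3 and Dock11 for Ccl28 (0.704, 0.678 and 0.658), and 1700028J19Rik, Spr-ps1 and Zfp607b for Ccl25 (0.622, 0.592 and 0.544).

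The receptors of these ligands were low in the mucosa. Of 23 chemokine receptors listed, 14 were tested, and under vehicle 4 were higher in KO mice, 1 was lower and 9 were not called, with a median log2 fold change of 0.37. Cxcr5, the receptor of Cxcl13, was among the 4, at 1.51 ± 0.599 (adjusted p = 0.0221). Cxcr2, the receptor of Cxcl1 and Cxcl5, differed by 0.46 ± 0.370 (adjusted p = 0.255), and Cxcr6, the receptor of Cxcl16, by 0.06 ± 0.281 (adjusted p = 0.852). The receptors of Ccl20 and Ccl28, Ccr6 and Ccr10, did not pass the filter on low counts. Ccr10 was at 0 to 0.264 CPM in WT/PEG and at 0.320 to 2.75 CPM in KO/PEG. These ranges did not overlap, but the lowest KO/PEG value lay within the floor of detection of 0.137 to 0.495 CPM. Under NTZ in KO mice, edgeR called 2 receptors lower and none higher, as did DESeq2, with 4 lower and 0 higher at an unadjusted p under 0.05: Ccr1, a receptor of Ccl5, by -0.92 ± 0.268 (adjusted p = 0.0321) and Ccrl2 by -0.69 ± 0.212 (adjusted p = 0.0432).

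Among 29 other chemokine ligands, 19 were tested. In KO/PEG with WT/PEG, 13 were higher and 2 lower, with a median log2 fold change of 1.07. Cx3cl1 (1.44 ± 0.136), Cxcl15 (3.53 ± 0.343) and Cxcl14 (1.89 ± 0.206) were higher, and the stromal ligand Cxcl12 was lower (-1.47 ± 0.215), each with an adjusted p of at most 1.11e-07. In KO/NTZ with KO/PEG, none of the 19 passed edgeR's test in either direction, beside 4 of the 10 members, and their median was -0.135. At an unadjusted p under 0.05, 1 was higher and 3 were lower, and DESeq2 called 1 lower. The difference between those counts was not tested, and the members and lists were chosen with earlier results of these data known.

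Of the listed inducing cytokines and NF-kappaB feedback genes, 15 of 21 were tested. In KO/PEG with WT/PEG, 11 were higher and 1 lower, with a median of 0.65. Whether any of them changed before the chemokines was not tested. Tnf, at 0.344 to 2.96 CPM in KO/PEG and at most 0.213 CPM in WT/PEG, rose by 3.38 ± 0.507 (adjusted p = 1.94e-07). In KO/NTZ with KO/PEG, 5 of the 15 were lower and none higher by edgeR and by DESeq2, with a median of -0.43 and with 6 lower and 0 higher at an unadjusted p under 0.05. Il1a, the interleukin-1 released by epithelium, was at 0.513 to 6.68 CPM in KO/PEG (median 1.45) and at 0 to 0.623 CPM in KO/NTZ (median 0.416). Of 11 KO/NTZ libraries, 9 were below every KO/PEG library, and the log2 fold change was -2.49 ± 0.382 (adjusted p = 3.96e-05). Nfkbiz fell by 1.18 ± 0.260 (adjusted p = 0.00378), Il1b by 1.06 ± 0.316 (adjusted p = 0.0372), Birc3 by 0.71 ± 0.168 (adjusted p = 0.00742) and Tnfaip3 by 0.53 ± 0.131 (adjusted p = 0.00972). Il1a was also called in the difference between the NTZ effects (-2.93 ± 0.610, adjusted p = 0.0103).

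Of 7 listed proteases that trim chemokines, 5 were tested, and 2 fell under NTZ in KO mice. These were Mmp12, the macrophage elastase, by 1.33 ± 0.233 (adjusted p = 2.84e-04), and Mmp9 by 1.46 ± 0.446 (adjusted p = 0.0426). Mmp12 also passed in the difference between the NTZ effects (-1.54 ± 0.350, adjusted p = 0.0202). Under vehicle, Mmp12, Mmp9 and Dpp4 were higher and Adam10 and Adam17 lower in KO mice. Hdc marks enterochromaffin-like cells, which are among those that carry the gastrin receptor, and the study takes Chga as a general neuroendocrine marker. In KO/NTZ with KO/PEG, Hdc fell by 1.97 ± 0.217 (adjusted p = 1.03e-07) and Chga by 1.22 ± 0.154 (adjusted p = 9.69e-07).

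Promoter sequences, from RefSeq on GRCm38.p6, were given for 6 of the members, Cxcl1, Cxcl13, Ccl20, Ccl28, Ccl25 and Ccl8. They were searched on both strands for the 10-letter NF-kappaB consensus, over the 300 bases from 250 before to 50 after the start. Of 32851 promoters in the table, 8.46% held a match, and so did those of 2 members, Cxcl1 and Ccl20. Both fell under NTZ in KO mice, and their 250 bases before the start are shown, on the plus strand, with the matching bases in capitals, at chr5:90890995-90891244 for Cxcl1 and chr1:83116516-83116765 for Ccl20.
Cxcl1: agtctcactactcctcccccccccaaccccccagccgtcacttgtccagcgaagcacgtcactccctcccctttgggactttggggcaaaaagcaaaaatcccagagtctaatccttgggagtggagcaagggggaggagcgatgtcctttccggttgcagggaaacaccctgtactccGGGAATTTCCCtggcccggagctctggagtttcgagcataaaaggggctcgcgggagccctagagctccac
Ccl20: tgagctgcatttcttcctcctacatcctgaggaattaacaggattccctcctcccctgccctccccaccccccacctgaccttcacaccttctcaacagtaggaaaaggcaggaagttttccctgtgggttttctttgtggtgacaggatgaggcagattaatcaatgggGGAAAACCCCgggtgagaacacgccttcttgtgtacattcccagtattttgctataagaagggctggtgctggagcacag
In Cxcl1 the 2 matches overlap, 71 to 62 and 70 to 61 bases before the start on opposite strands, and are 1 stretch. In Ccl20 the match lies 80 to 71 bases before the start, on the minus strand. Ccl28, which fell as well, had no match in this window. The promoter of Cxcl5, the other member that fell, was not given and so was not searched. A match of letters is a description and does not show that NF-kappaB binds there.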

How the data were processed

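The authors aligned single 75-cycle reads of stranded mRNA libraries to GRCm38 transcripts with kallisto 0.42.4 and deposited an estimated count for each of 94080 transcripts and library, without normalization (the labels also name bcl2fastq and sleuth). Of these transcripts, 92372 could be paired with a gene name of GENCODE vM21, and those that could not held 0.329% to 1.3% of the counts of a library. Estimated counts were summed per gene and rounded to whole numbers. Low genes were removed with filterByExpr, set to a minimum count of 10 and a total of at least 15, and libraries were normalized by TMM and fitted in a model with a mean for each group in edgeR 4.0.16 (R 4.3.3). Contrasts were tested by the quasi-likelihood method, with Benjamini-Hochberg adjustment over all genes and a threshold of 0.05. The study's Sleuth test needs more than the deposited values and was not repeated. Correlations used log2 CPM (prior count 2) and 100000 permutations, two-sided, so the smallest p they can give is 1e-05. TPM was computed from the estimated counts and transcript lengths. DESeq2 1.42.0 was an alternative. Figures were drawn with matplotlib 3.10.9.

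The labels number 13 KO/PEG libraries, whereas the study describes fewer mice in that group. All were used, each as 1 sample. A pair of WT/PEG libraries carries 1 animal number, and 110 occurs in both KO groups. The labels do not say how each library relates to an animal, so p-values measure the spread between libraries. The members and gene lists were chosen with earlier results of these data known. Named beyond the members were the 3 genes most alike to each member, Atp4b, and of each list the genes past the threshold in KO/NTZ with KO/PEG or in the difference between the NTZ effects, otherwise up to 4 with the smallest p in KO/PEG with WT/PEG. Cxcr2, Cxcr6, Ccr6 and Ccr10, Tnf and the other proteases were named outside that rule, after their values were seen. On simulated counts for KO/NTZ with KO/PEG, with 14434 genes fitted, 84% of genes changed by 2-fold and 99% of those changed by 4-fold were recovered, and 12 of 194 calls (6.19%) were false. Every group was simulated from the KO/PEG means, with negative binomial spread, no outlying libraries and no classes of animal numbers. Only genes above a minimum mean count were changed. These rates therefore need not hold for the real comparison.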

Additional observations from a re-analysis of the deposited data

Results flagged for a closer look

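Values of the 10 chemokines in WT/NTZ, the group of 9 libraries small enough for Dixon's test on log2 CPM, were searched for single libraries far from the others. Of 10 tests, 5 were past the 95% critical value, where chance gives about 1 in 20. WT_118 was far above the rest in Ccl8 (14.1 CPM), Ccl5 (7.66 CPM) and Cxcl16 (50.4 CPM) and far below the rest in Cxcl17 (44.7 CPM). In the same library, T cell markers summed to 31.7 CPM and B cell markers to 41.1 CPM, and the part of those cells in these values was not tested. WT_86 was far below the rest in Ccl25, at 0.123 CPM, an estimated count of 1.

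The NTZ effect on Ccl28 differed between KO and WT mice by -1.04 on the log2 scale (edgeR, adjusted p = 0.0438), edgeR's only such call among the 10 members. The call was lost in 21 of 44 fits that each left out a library, and DESeq2 called 4 members in this difference.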

How the results depend on the processing

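Across 493 recomputed fold changes of the members under the alternatives, 460 kept their side of the threshold, 25 lost a call and 8 gained one. With single libraries left out, these were 1219, 53 and 21 of 1293. The sign turned in 13 and 23 of them, among values of Cxcl17, Ccl25, Ccl5 and Ccl8 that were called neither before nor after. Some fits did not test every member, since Cxcl5, Cxcl13, Ccl5, Cxcl1 or Ccl8 fell below the filter when fewer libraries were used.

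The number of members called in KO/PEG with WT/PEG was 9, and 6 to 9 under the alternatives, of which some tested fewer members. The number of members called in KO/NTZ with KO/PEG was 4, and 2 without the 4 libraries with follicle markers (chosen after seeing the data, with Cxcl5 not tested) or with only the transcript with the most counts. In WT/NTZ with WT/PEG it was 1, and 0 with only the groups compared or with 1 class of animal numbers (Ccl8 not tested in either), without those 4 libraries, or with the transcript with the most counts. In KO/NTZ with WT/NTZ it was 5, and 3 with only the groups compared or with the transcript with the most counts. In the difference between the NTZ effects it was 1, 4 by DESeq2 (Ccl28, Cxcl1, Cxcl5 and Ccl8), and 0 with no filter on low counts, with the WT/PEG pair of 1 animal number summed, without the 4 libraries, or with the transcript with the most counts. The causes were not tested. When each library was left out, the counts ranged from 6 to 9 in KO/PEG with WT/PEG, 3 to 4 in KO/NTZ with KO/PEG, 0 to 1 in WT/NTZ with WT/PEG, 4 to 8 in KO/NTZ with WT/NTZ and 0 to 2 in the difference. Calls over all genes in KO/NTZ with KO/PEG were 829, 1249 by DESeq2, 267 with only the groups compared, 101 within 1 class of animal numbers and 1288 with a term for that class, and in WT/NTZ with WT/PEG they were 154, 0 with only the groups compared (edgeR, with 2118 at an unadjusted p under 0.05), 892 within 1 class, 312 with the term and 79 without the 4 libraries. In the difference, 36 genes were higher and 107 lower, against 274 in all by DESeq2 and 72 without the 4 libraries. A prior count of 0.25 left the number of correlated pairs as it was. No paired analysis was possible because the groups share only the animal number 110.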
